A study of Homo sapiens with 6 samples.

Results

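The G1/S cyclins, cyclin-dependent kinases (CDKs) and CDK inhibitors examined here are 10 genes, taken by symbol from the 62696 genes counted in each library: the D cyclins CCND1, CCND2 and CCND3, the E cyclins CCNE1 and CCNE2, the kinases CDK4, CDK6 and CDK2, and the inhibitors CDKN1B (p27) and CDKN2C (p18). They were read in 12Z, an established human epithelial cell line derived from endometriosis. One group was given 1 siRNA against LINC01638, a long non-coding RNA (labelled LINC01638_2; replicates A, B and C), and the other received a control siRNA, also as A, B and C. Both groups carried the label p40, were grown in medium with fetal calf serum, were transfected with Lipofectamine RNAiMAX and were harvested after 72 h. A single line, a single siRNA against the target and a single time point limit the model. The labels do not say that the replicates were separate cultures, so p-values speak only to variation among these libraries, possibly of technical origin.

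D cyclins bind CDK4 and CDK6 in early G1 and carry growth factor signals to the retinoblastoma (RB) proteins, which hold back the E2F transcription factors. Once E2F is released, E cyclins accumulate and drive CDK2, which commits the cell to DNA replication. INK4 inhibitors such as CDKN2C bind CDK4 and CDK6, whereas Cip/Kip inhibitors such as CDKN1B act mainly on cyclin E and CDK2. Much of this control works on proteins, by phosphorylation and degradation, and RNA counts do not read it.

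Directional total RNA libraries depleted of ribosomal RNA gave 50470195 to 58148664 gene counts with LINC01638 siRNA and 45617234 to 55031286 with control siRNA. Levels are CPM, the count divided by the library's total and scaled by TMM (the trimmed mean of M-values), as mean ± SD with n = 3 per group. LINC01638 itself stood at 2.29, 1.98 and 2.04 CPM in the LINC01638 siRNA libraries, against 7.63, 7.64 and 7.80 CPM in the control libraries, and by the fitted difference it fell by 72.6%. The epithelial keratin genes KRT8, KRT18 and KRT19 averaged 1811, 988 and 542 CPM with LINC01638 siRNA, and 2602, 1335 and 1421 CPM with control siRNA. EPCAM, a defining epithelial adhesion gene, averaged only 1.38 CPM with LINC01638 siRNA and 0.376 CPM with control siRNA. CDH1, another, averaged 3.58 CPM with LINC01638 siRNA and 8.13 CPM with control siRNA. Summed over all 6 epithelial markers the level was 3177 to 3706 CPM with LINC01638 siRNA and 5168 to 5614 CPM with control siRNA, and 1 of the 6 (EPCAM) was higher and 5 were lower. The 9 markers of immune, endothelial, stromal and ciliated cells summed to 121 to 138 CPM and to 123 to 146 CPM, mostly from MME and PDGFRB. MME averaged 45.5 CPM with LINC01638 siRNA and 36.0 CPM with control siRNA. PDGFRB averaged 82.4 CPM and 98.2 CPM in turn, well above EPCAM and CDH1. Among the 9 markers CD3E was at 0 in every library, 5 of 9 were tested, and 3 were higher and 1 lower. Reads outside annotated exons of the matching strand made up 13.2% ± 1.67 of mapped reads with LINC01638 siRNA and 9.18% ± 0.864 with control siRNA. The part of the markers and of this read share in the results below was not tested.

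Of the 10 members, 9 had enough counts to be tested and 8 passed an adjusted p of 0.05 (edgeR quasi-likelihood test, Benjamini-Hochberg over 18569 genes). CCND1, CCND3, CCNE1, CDKN1B and CDKN2C were higher with LINC01638 siRNA, CCNE2, CDK4 and CDK2 were lower, and CDK6 did not pass. Across all genes tested 56.0% passed, 26.3% as higher and 29.6% as lower, so a high share of called members is the background in these libraries. The libraries of the groups did not overlap for 8 of the 9 members, against 61.5% of all genes. The median absolute log2 fold change was 0.39 over the 9 members and 0.33 over all genes. Size sets CCNE1 apart among the members, since 3.17% of all genes had a larger absolute log2 fold change, whereas 26.0% exceeded CCND3, 28.0% exceeded CCNE2 and between 43.5% and 95.5% exceeded each of the other 6. In bulk RNA, fewer cells in one cell cycle phase and less RNA per cell cannot be told apart.

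**Figure D1:**
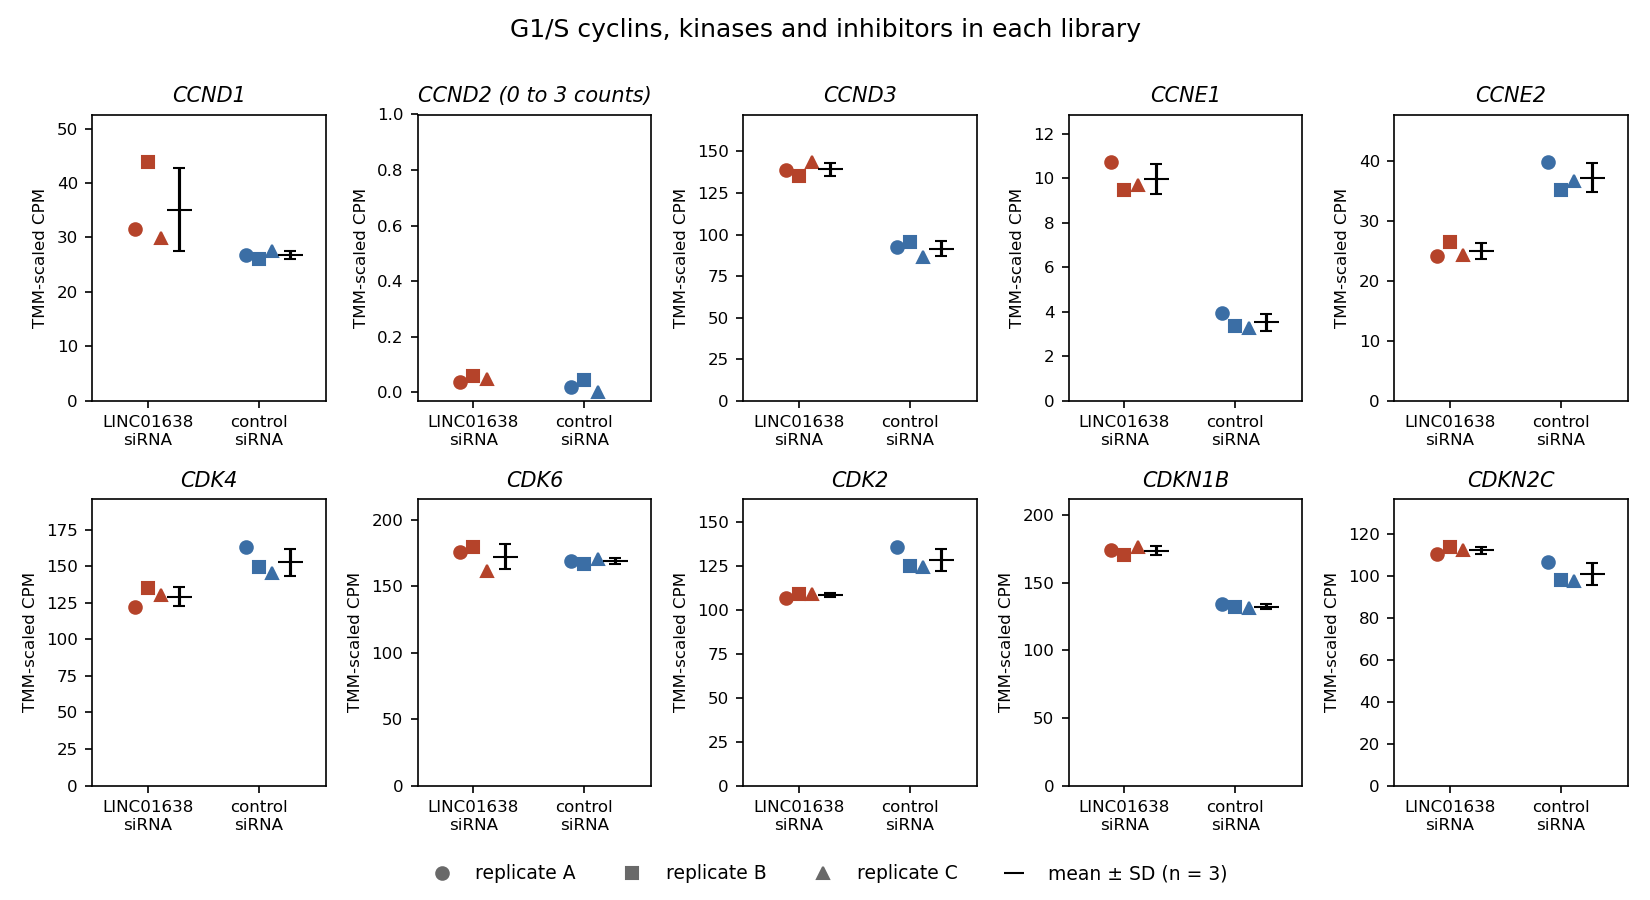
TMM-scaled CPM of each of the 10 members in each library (y axis, from 0, apart from the CCND2 panel, which starts just below 0), with LINC01638 siRNA in red at the left and control siRNA in blue at the right of each panel. Black marks are mean ± SD (n = 3), left out for CCND2, whose points rest on 0 to 3 counts. The groups are separate in every panel but those of CDK6 and CCND2.

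The promoters of 3 members are shown, because these stand for the E cyclin that rose, the inhibitor with the larger rise and a kinase that fell. They are CCNE1 (chr19:29811741-29812040, plus strand), CDKN1B (chr12:12717118-12717417, plus strand) and CDK4 (chr12:57752261-57752560, minus strand). Each stretch runs 5′ to 3′ from 250 bases before to 50 bases after a RefSeq start on GRCh38.p14. The table used holds 11 promoters of 6 members, and none of CCND1, CCND2, CCNE2 or CDK2. Capitals mark GC boxes (GGGCGG on either strand) in CCNE1, CCAAT boxes (CCAAT on either strand) in CDKN1B and E-boxes (CACGTG, which reads the same on both strands) in CDK4.

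CCNE1: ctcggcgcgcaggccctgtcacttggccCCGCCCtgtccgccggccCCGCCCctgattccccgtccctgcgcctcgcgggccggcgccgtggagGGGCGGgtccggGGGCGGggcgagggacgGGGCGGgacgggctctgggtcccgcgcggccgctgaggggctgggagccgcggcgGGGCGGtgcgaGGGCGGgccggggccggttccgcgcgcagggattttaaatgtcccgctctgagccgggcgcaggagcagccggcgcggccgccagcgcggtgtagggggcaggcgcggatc

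CDKN1B: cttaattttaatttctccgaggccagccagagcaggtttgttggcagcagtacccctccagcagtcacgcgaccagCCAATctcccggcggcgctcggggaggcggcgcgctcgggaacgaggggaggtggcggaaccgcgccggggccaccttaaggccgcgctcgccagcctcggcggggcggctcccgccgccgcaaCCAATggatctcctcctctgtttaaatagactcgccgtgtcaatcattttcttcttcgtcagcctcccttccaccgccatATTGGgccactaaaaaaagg

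CDK4: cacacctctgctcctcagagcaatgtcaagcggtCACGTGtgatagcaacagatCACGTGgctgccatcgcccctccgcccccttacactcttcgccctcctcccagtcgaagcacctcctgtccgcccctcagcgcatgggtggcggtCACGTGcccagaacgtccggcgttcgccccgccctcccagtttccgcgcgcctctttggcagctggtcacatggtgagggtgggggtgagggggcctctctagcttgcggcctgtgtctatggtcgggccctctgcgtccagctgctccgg

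The CCNE1 stretch is 81.0% G and C and holds 7 GC boxes, a number reached by 1.50% of 35116 promoters of this length, while 45.0% hold at least 1. These shares are not matched for G and C content. Of the 11 member promoters 8 hold a GC box, with 6 in a promoter of CDKN2C and 5 in one of CCND3. CDKN1B has 3 CCAAT boxes, a motif bound by NF-Y, and 3.26% of promoters have 3 or more. CDK4 has 3 E-boxes, the motif of MYC and its relatives, and 0.0940% of promoters have 3 or more, while 7.26% have at least 1. None of the 11 member promoters held any of 4 E2F words searched on both strands (TTTCCCGC, TTTGGCGC, TTTCGCGC and TTTGCCGC), which 3.31% of all promoters hold. With so low a share, their absence from 11 promoters does not set the members apart. These are matches of letters in a short window, chosen after the values were known, and say nothing of binding.

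The E cyclins moved in opposite directions. CCNE1 (ENSG00000105173.14, GRCh38 chromosome 19, 29811898 to 29824308, plus strand), which activates CDK2 at the G1/S boundary, had 585, 492 and 582 counts with LINC01638 siRNA and 210, 146 and 174 counts with control siRNA. That came to 10.7, 9.46 and 9.68 CPM in the LINC01638 siRNA libraries, against 3.94, 3.34 and 3.28 CPM in the control libraries. All 3 LINC01638 siRNA libraries lay above every control library. The rise was 2.82-fold (log2 fold change 1.50, SE 0.10, edgeR adjusted p = 3.49e-10), and 395 of the 18569 genes tested had a larger one.

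CCNE2 (ENSG00000175305.18, minus strand), the paralogue that also partners CDK2, stood at 24.2, 26.6 and 24.3 CPM with LINC01638 siRNA, against 39.8, 35.2 and 36.8 CPM with control siRNA. Every LINC01638 siRNA library was below every control library. The log2 fold change was −0.58 (SE 0.06, edgeR adjusted p = 2.06e-07), to 0.671 of the control level. Exons of CCNE2 share 1629 bases with INTS8, which lies on the opposite strand, so the strand-specific count matters for this gene.

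Compared within each library, where scaling cancels, the log2 ratio of CCNE1 to CCNE2 counts was −1.18, −1.49 and −1.33 with LINC01638 siRNA and −3.34, −3.40 and −3.49 with control siRNA. The balance shifted 4.22-fold towards CCNE1 (difference 2.08; two-sided exact permutation p = 0.1, which is the floor for 3 libraries against 3). Per kilobase of annotated exon, CCNE1 supplied 40.7% ± 2.61 of E-cyclin RNA with LINC01638 siRNA and 14.0% ± 0.622 with control siRNA. The summed E-cyclin level was 9.60 ± 0.235 CPM per kb with LINC01638 siRNA and 9.86 ± 0.667 CPM per kb with control siRNA, and the libraries of the groups overlapped. CCNE2 stayed the larger of the pair in all 6 libraries on this scale, which rests on the union of all annotated exons, so it depends on which exons these cells use.

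The D cyclins differed in level and in how firmly they moved. CCND3 (ENSG00000112576.13, chromosome 6, 41934933 to 42050357, minus strand) stood at 139, 135 and 143 CPM in the LINC01638 siRNA libraries, against 92.6, 95.2 and 86.6 CPM in the control libraries. The groups were far apart relative to their spread, with a log2 fold change of 0.61 (1.52-fold, SE 0.05, edgeR adjusted p = 3.20e-09).

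CCND1 (ENSG00000110092.4, chromosome 11, 69641087 to 69654474, plus strand), the growth factor-responsive D cyclin, stood at 31.6, 43.8 and 29.9 CPM with LINC01638 siRNA, against 26.8, 26.0 and 27.5 CPM with control siRNA. Replicate B of the LINC01638 siRNA group lay apart from the other two, which were near the control libraries although above them. The log2 fold change was 0.39 (SE 0.14, edgeR adjusted p = 0.0434). Without LINC01638 siRNA replicate B it was 0.19 and still passed (edgeR adjusted p = 0.0162). The call was lost without any one of the control replicates A, B or C, with edgeR adjusted p-values of 0.166, 0.158 and 0.0632. It was also lost when reads were counted without strand (edgeR adjusted p = 0.117).

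CCND2 (ENSG00000118971.9, chromosome 12, 4273772 to 4305350, plus strand) had 2, 3 and 3 counts with LINC01638 siRNA and 1, 2 and 0 counts with control siRNA. Both groups were at or below 3 counts per library, or 0.0499 to 0.0686 CPM, so it was not tested and no difference was detectable at this depth. Its exons share 989 bases with another annotated gene on the same strand, and reads that lie in both would not be counted for either.

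CCND3 supplied most of the D-cyclin RNA per kilobase of exon, 76.8% ± 4.24 with LINC01638 siRNA and 73.9% ± 1.47 with control siRNA, and CCND1 supplied 23.2% ± 4.24 and 26.1% ± 1.49. The log2 ratio of CCND1 to CCND3 overlapped between the groups (difference −0.24, exact two-sided permutation p = 0.4). Their summed level was 31.3 ± 1.02 CPM per kb with LINC01638 siRNA and 21.3 ± 0.620 CPM per kb with control siRNA. Here the groups did not overlap in the sum but did in the shares, the opposite of the E cyclins.

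**Figure D2:**
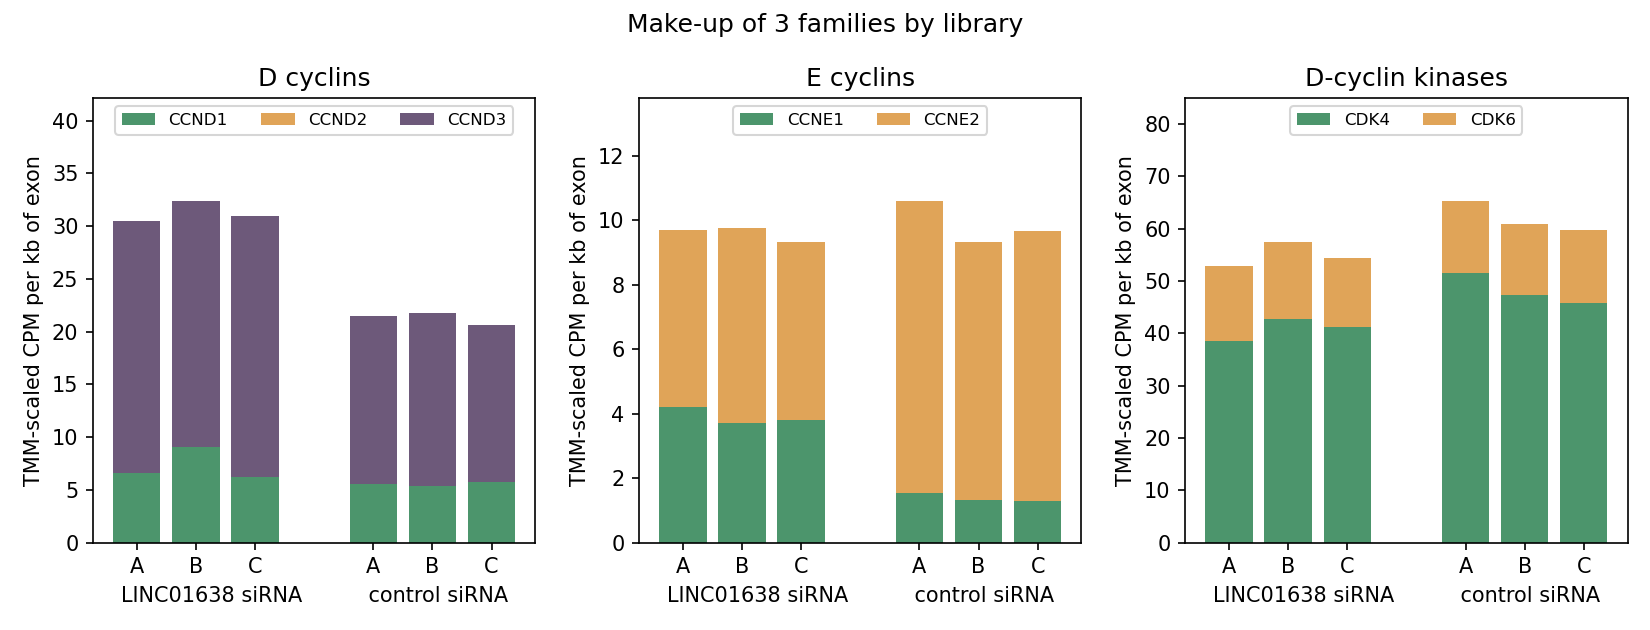
Stacked bars give the TMM-scaled CPM per kb of annotated exon of D cyclins, E cyclins and D-cyclin kinases in each library (x axis; LINC01638 siRNA replicates A, B and C at the left, control siRNA replicates at the right). The CCNE1 part averages 40.7% of the E-cyclin bar with LINC01638 siRNA and 14.0% with control siRNA, while the summed E-cyclin heights overlap.

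The kinase genes were lower or did not pass. CDK4 (ENSG00000135446.17, chromosome 12, 57747727 to 57756013, minus strand), the main D-cyclin kinase, stood at 122, 135 and 131 CPM with LINC01638 siRNA, against 163, 150 and 145 CPM with control siRNA. The groups did not overlap, and the log2 fold change was −0.24 (SE 0.05, edgeR adjusted p = 7.78e-04). Scaled by library totals alone it was −0.14 (edgeR adjusted p = 0.0319). Exons of CDK4 share 1369 bases with TSPAN31 on the opposite strand.

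CDK2 (ENSG00000123374.11, chromosome 12, 55966769 to 55972784, plus strand), the partner of E cyclins, stood at 107, 109 and 109 CPM with LINC01638 siRNA, against 136, 125 and 124 CPM with control siRNA. These groups did not overlap either (log2 fold change −0.25, SE 0.05, edgeR adjusted p = 2.25e-04). With library totals alone the log2 fold change was −0.14 (edgeR adjusted p = 0.0161). The RNA of the kinase therefore fell in the same libraries in which that of its partner CCNE1 rose. CDK2 RNA was 7.15 ± 0.534 times that of CCNE1 per kilobase of exon with LINC01638 siRNA and 24.0 ± 1.23 times with control siRNA.

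CDK6 (ENSG00000105810.10, chromosome 7, 92604921 to 92836594, minus strand), the other D-cyclin kinase, stood at 176, 180 and 162 CPM with LINC01638 siRNA, against 169, 167 and 171 CPM with control siRNA. The LINC01638 siRNA libraries lay on both sides of the control range. The log2 fold change was 0.03 (SE 0.05, edgeR adjusted p = 0.669), and an SE of this size leaves room for a small difference in either direction. Scaled by library totals alone, which moved the median of all genes to 0.10, it was 0.13 and passed (edgeR adjusted p = 0.0324).

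The log2 ratio of CDK4 to CDK6 was −0.53, −0.41 and −0.31 with LINC01638 siRNA and −0.05, −0.16 and −0.24 with control siRNA. The groups did not overlap (difference −0.27, exact two-sided permutation p = 0.1). CDK4 remained the more abundant per kilobase of exon, at 74.3% ± 1.43 of the pair with LINC01638 siRNA and 77.7% ± 1.10 with control siRNA.

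Both inhibitors were higher. CDKN1B (ENSG00000111276.12, chromosome 12, 12715058 to 12722371, plus strand) stood at 175, 171 and 177 CPM with LINC01638 siRNA, against 134, 132 and 131 CPM with control siRNA. Spread within each group was small against the gap, with a log2 fold change of 0.39 (1.31-fold, SE 0.05, edgeR adjusted p = 3.45e-07). CDKN2C (ENSG00000123080.12, chromosome 1, 50960745 to 50974633, plus strand) stood at 110, 114 and 112 CPM with LINC01638 siRNA, against 107, 98.0 and 97.8 CPM with control siRNA.

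Its groups did not overlap, but the gap between the nearest libraries was small (log2 fold change 0.15, SE 0.05, edgeR adjusted p = 0.0117; 0.25 with library totals alone). The CDKN2C call was lost without control replicate B or C (edgeR adjusted p = 0.0583 and 0.0699) and without strand (edgeR adjusted p = 0.101). Within libraries the log2 ratio of CDKN1B to CDKN2C was 0.63 ± 0.04 with LINC01638 siRNA and 0.39 ± 0.06 with control siRNA, without overlap (exact two-sided permutation p = 0.1).

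**Figure D3:**
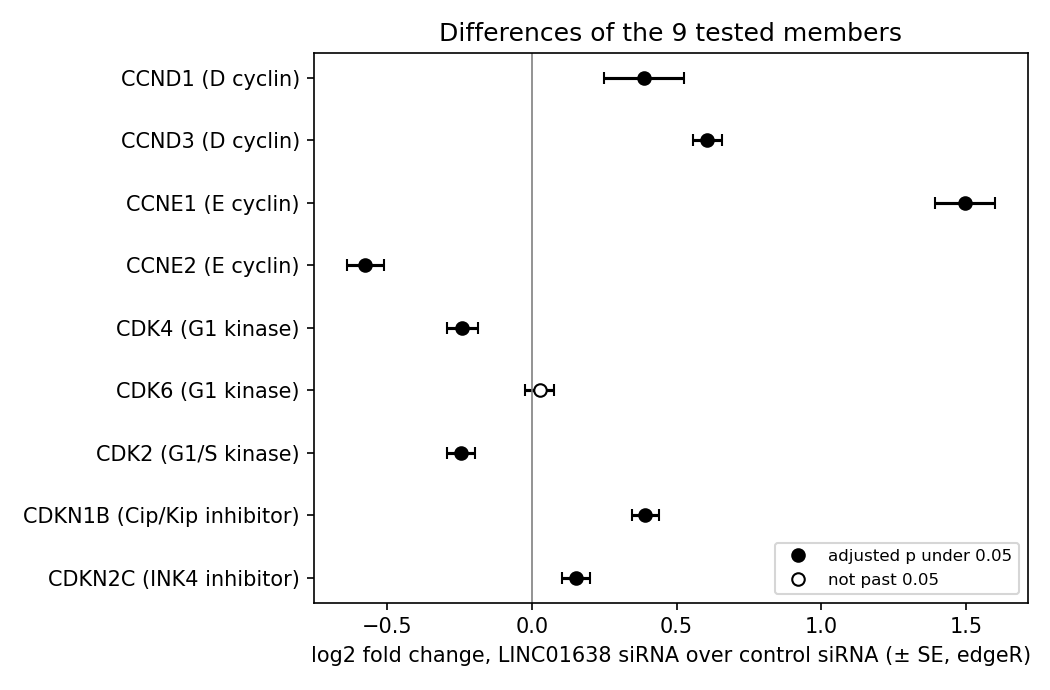
Log2 fold change of each of the 9 tested members, LINC01638 siRNA over control siRNA (x axis; error bars are ± SE from edgeR), in order of their role. Filled points passed an adjusted p of 0.05 and the open point, CDK6, did not. CCNE1 lies farthest from 0, at 1.50.

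Ordered by CPM per kb of exon, the LINC01638 siRNA libraries had CDKN1B first (61.9 ± 1.09), then CDK4 (40.8 ± 2.13), CDKN2C (33.8 ± 0.535), CDK2 (27.8 ± 0.300), CCND3 (24.0 ± 0.696), CDK6 (14.1 ± 0.765), CCND1 (7.27 ± 1.57), CCNE2 (5.70 ± 0.302) and CCNE1 (3.90 ± 0.262). In the control libraries CDK4 (48.2 ± 2.97) and CDKN1B (47.1 ± 0.567) overlapped at the top, as did CDK2 (33.0 ± 1.64) and CDKN2C (30.4 ± 1.57) after them. The lower places were held by CCND3 (15.8 ± 0.767), CDK6 (13.8 ± 0.162), CCNE2 (8.48 ± 0.534), CCND1 (5.55 ± 0.156) and CCNE1 (1.38 ± 0.143). The neighbours CCND1 and CCNE2 stand in opposite order in the groups. CCND2 was last in both.

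The 5 genes whose log2 CPM followed CCNE1 most closely over the 6 libraries, out of 10861 genes that averaged 5 CPM or more, were JADE3, RBBP5, PANK2, TAF5 and STAT3 (Pearson r of 0.998 to 0.999). This is a description of 6 points in 2 groups: 21.6% of the genes compared had r above 0.9.

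Other CDK inhibitors went both ways, with 2 higher and 3 lower of 5. Over all genes tested 26.3% were higher and 29.6% lower. Calls in both directions are therefore the background for this list and for those below. CDKN1A (p21), a Cip/Kip inhibitor and p53 target, stood at 398, 466 and 393 CPM with LINC01638 siRNA, against 125, 117 and 119 CPM with control siRNA (3.48-fold, log2 fold change 1.80, edgeR adjusted p = 7.87e-14). CDKN1C (p57), of the same family, fell to 6.41 ± 0.386 CPM with LINC01638 siRNA, against 11.8 ± 0.308 CPM with control siRNA. The 3 Cip/Kip genes therefore did not move as one, since CDKN1A and CDKN1B rose and CDKN1C fell. The other gene called higher and the other 2 called lower in this list are counted here and not named. They belong to the INK4 family of CDKN2C and went both ways, so the rise of CDKN2C gives no direction for its family.

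Of 18 genes of the RB, E2F and DREAM switch, 9 were higher and 5 lower (median log2 fold change 0.19, against 0.00 over all genes). E2F6, a repressive E2F, averaged 26.6 ± 0.590 CPM with LINC01638 siRNA and 14.9 ± 0.573 CPM with control siRNA, and TFDP2, a dimerisation partner of E2Fs, 67.9 ± 3.36 and 40.8 ± 1.49 CPM. Of the atypical repressors, E2F8 rose 1.39-fold, while E2F7, named after its values were seen, fell to 0.790 of its control level. The pocket protein gene RBL2 (p130) fell to 0.646. Of the other pocket protein genes, named after their values were seen, RB1 rose 1.21-fold and RBL1 fell to 0.722. Among 21 E2F-regulated S-phase genes 6 were higher, 5 lower and 10 did not pass, with a median of 0.00. RRM1 (1.39-fold), a subunit of ribonucleotide reductase, was higher, and the licensing genes MCM7 and CDT1 were lower, at 0.793 and 0.828 of their control levels.

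Genes that act on these complexes went both ways too, as did all genes tested (26.3% higher and 29.6% lower). Of 15 genes of cyclin and p27 turnover, 3 were higher and 6 lower (median −0.08). SKP2, the F-box protein that targets CDKN1B protein for degradation, fell to 146 ± 2.30 CPM with LINC01638 siRNA, against 273 ± 15.9 CPM with control siRNA (log2 fold change −0.91, SE 0.05, edgeR adjusted p = 1.98e-11). FBXW7, the F-box protein for cyclin E, rose 1.43-fold, and AMBRA1, the substrate receptor for D cyclins, 1.33-fold. SKP1, the adaptor of SKP2 and FBXW7, rose 1.64-fold. Its counted level was low, at 1.63 CPM per kb of exon with LINC01638 siRNA and 0.989 CPM per kb with control siRNA. The annotated exons of SKP1 span 12.8 kb in union. Reads over several genes are not counted, and none mapping to several places was recorded. Whether this lowers the SKP1 value was not tested. Of 8 genes of CDK activation, 3 were higher and 3 lower (median −0.02). The phosphatase gene CDC25A, which acts on CDK2, rose 1.52-fold, while CDC25B fell to 0.574 of its control level. The inhibitory kinase genes PKMYT1 and WEE1 fell to 0.763 and 0.891. WEE1 did not pass when scaled by library totals alone (log2 fold change −0.06, edgeR adjusted p = 0.272).

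Among the A, B, F and G cyclins with CDK1, 1 gene (CCNG2) was higher and 3 lower of 7 (median −0.07). Cyclin A2 (CCNA2), the S-phase partner that takes over CDK2 from E cyclins, stood at 88.2 ± 5.31 CPM with LINC01638 siRNA and 166 ± 14.0 CPM with control siRNA. CCNB1 and CCNB2, the mitotic cyclins, fell to 0.763 and 0.858 of their control levels, and CCNG2, a cyclin linked to growth arrest, rose 1.53-fold. Of 26 other cyclin and CDK genes, 13 were higher and 4 lower (median 0.13). They included the transcriptional kinase CDK12 (1.45-fold), the CDK9 partner CCNT1 (1.38-fold) and the Mediator cyclin CCNC (1.59-fold) on the higher side, and CCNYL1, at 0.712 of control, on the lower.

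**Figure D4:**
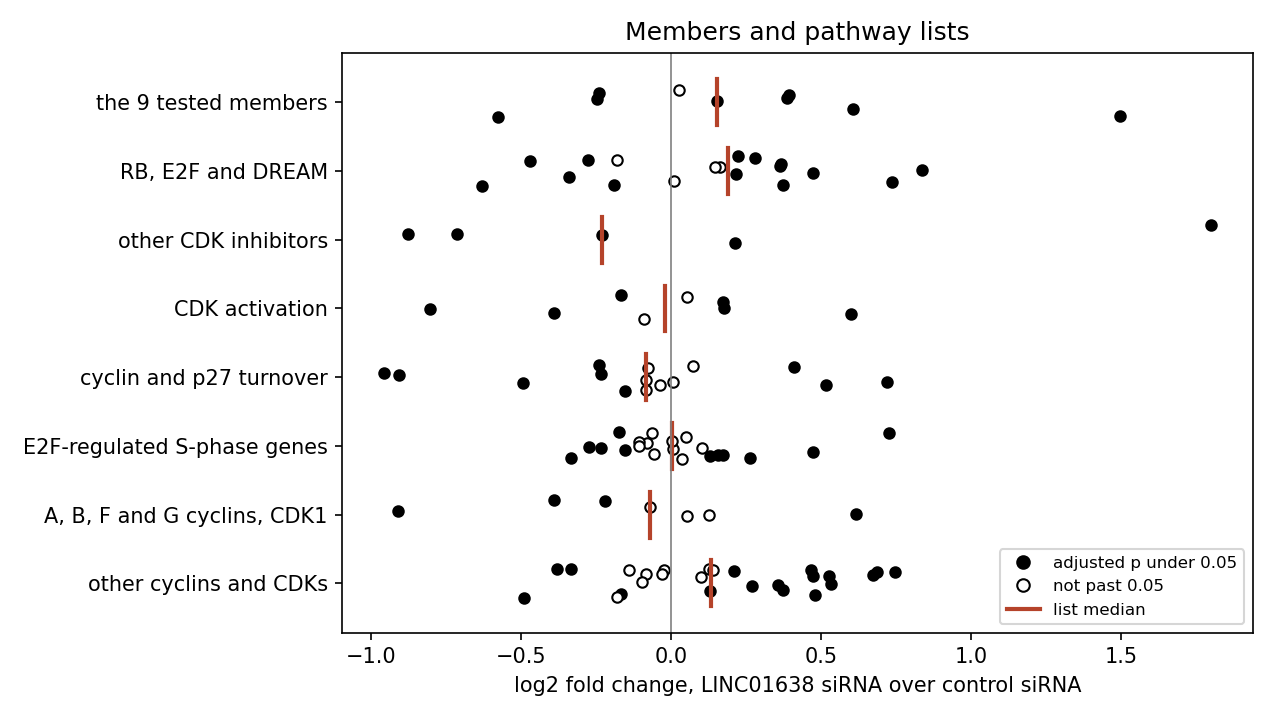
Log2 fold change (x axis, LINC01638 siRNA over control siRNA) of each tested gene in the 9 members and in 7 pathway lists (rows). Filled points passed an adjusted p of 0.05, open points did not, and red bars are list medians. CCNE1 at 1.50 and CDKN1A at 1.80 lie farthest to the right, and list medians lie between −0.23 and 0.19.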

How the data were processed

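Total RNA of 12Z cells was sequenced in 6 libraries. The submitters' processing notes name the aligner STAR (2.7.10b), R (4.2.1) and the GRCh38 (hg38) genome. The authors deposited unnormalized counts per gene, 1 STAR table per library, with columns without strand and for either strand. Annotation release and mapping parameters are not stated there. The analysis took the reverse-strand column, which fits a directional kit, and the 4 rows that name no gene were left out. Those rows held, with LINC01638 and control siRNA in turn, 13.2% and 9.18% of mapped reads outside exons, 7.17% and 7.49% over several genes and 0% mapping to several places, and 13.0% and 12.3% of all reads as unmapped.

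Symbols were matched exactly for 61918 identifiers and without version for 754. Positions, overlaps and exon lengths came from GENCODE 29 on GRCh38, possibly another release than the one counted on, and promoters from RefSeq (GRCh38.p14). Genes were filtered with filterByExpr (minimum count 10, minimum total 15), scaled by TMM and tested with edgeR's quasi-likelihood F test, group as the only term, in all 6 libraries. P-values were adjusted by Benjamini-Hochberg over 18569 genes, with a threshold of 0.05. SE is the absolute log2 fold change over the square root of F. Ratios within libraries were compared by an exact permutation test. The ratio of CCND1 to CCND2 was not computed because CCND2 had 0 to 3 counts. The SEs come from this fit and include the spread among libraries. Versions were edgeR 4.0.16, DESeq2 1.42.0 and limma 3.58.1 in R 4.3.3, with Python 3.11.15, and the tests were checked on simulated data.

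The members, lists, motifs and tests were chosen with earlier results of these data known. The genes named are the members, LINC01638, CDKN1A and a part of those with the lowest p in each list, up to 4 a list. E2F7, RB1 and RBL1 were added after their values were seen. Same-letter replicates did not deviate together (r of −0.29, −0.18 and 0.01 over 10862 genes), so the letters were not taken as pairs. Alternatives were DESeq2 size factors, library totals alone, the DESeq2 Wald test, limma-voom, a replicate block, protein-coding genes only, counts taken without strand, filtering at 1 CPM in at least 3 libraries with a mean of 10 counts (stricter), no filtering, and leaving out each library.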

Additional observations from a re-analysis of the deposited data

Results flagged for a closer look

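Reads on the strand opposite to a member enter only the alternative counted without strand. Scaled as CPM, they were higher in all 3 LINC01638 siRNA libraries than in any control library for CCND3, CDK2 and CDKN1B. For CDK6 such reads went the other way, lower in every LINC01638 siRNA library than in any control library. They averaged 1.37 CPM for CCND3 with LINC01638 siRNA and 0.716 CPM with control siRNA. For CDK2 they averaged 0.348 CPM with LINC01638 siRNA and 0.287 CPM with control siRNA. This rests on few reads: 22, 16 and 20 with LINC01638 siRNA and 15, 13 and 15 with control siRNA. For CDKN1B they averaged 0.870 CPM with LINC01638 siRNA and 0.503 CPM with control siRNA. As a share of both strands they were 0.971% with LINC01638 siRNA and 0.782% with control siRNA for CCND3, and these shares overlapped between the groups (0.775% to 1.17% with LINC01638 siRNA and 0.664% to 0.991% with control siRNA). For CDKN1B they were 0.498% with LINC01638 siRNA and 0.378% with control siRNA, without overlap. CDK6 had 0.497 CPM of such reads with LINC01638 siRNA and 0.663 CPM with control siRNA. Its shares were 0.288% and 0.390% in turn, also without overlap. How many of all genes separate in this way is not given here. The differences were not tested.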

How the results depend on the processing

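CCND3, CCNE1, CCNE2, CDK4, CDK2 and CDKN1B kept their direction and passed in all 15 alternatives, although with library totals alone CDK4 and CDK2 were both at −0.14, against −0.24 and −0.25. CCND1 passed in 11 and CDKN2C in 12, and CDK6 passed in 1. None of the 8 members that passed in the reported fit changed direction. CDK6, near 0 throughout, was at −0.009 without LINC01638 siRNA replicate B and at −0.015 without strand. With the replicate block 9962 genes passed, against 10390 without it, and the block changed the call of no member. Library totals alone called 6341 genes higher and 4291 lower, against 4887 and 5503 in the reported fit. Without strand, 3 members were called higher in place of 5, and leaving out single libraries gave 3 to 5. For genes called higher, the column without strand gave 1 of the other CDK inhibitors, 1 of CDK activation and 3 of the E2F-regulated genes, and leaving out single libraries gave 1 to 2, 1 to 3 and 3 to 7. Library totals alone gave 3 lower genes each in cyclin turnover and among the E2F-regulated genes. Of the A, B, F and G cyclins with CDK1, 2 were higher with DESeq2 size factors, the stricter filter or protein-coding genes only. With library totals alone 3 were higher, and 1 to 2 without single libraries. The causes were not tested. The difference in log2 ratio of CCNE1 to CCNE2 ranged from 2.00 to 2.15. Depth limits only CCND2.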
